A study of Mus musculus with 20 samples.

Results

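Nnmt, Clec11a, Fndc1, Adamts2, Tnnt2, Sfrp1, Ctla2a, Wfdc18, Kazald1 and Mgp were at least 2-fold lower without PML in both pairs of RNA tables of mouse embryonic fibroblasts. These 10 genes were chosen from 85 genes that met this rule, of 22593 genes present in all 4 tables. The rule used the difference between genotypes in log2(FPKM + 1), where FPKM is a fragment count divided by transcript length and by the mapped fragments of the library. The RNA differences of the 10 genes are therefore a description and were not tested. The cells were embryonic fibroblasts of C57BL/6 background, either wild-type (WT) or with PML knocked out (KO), at passage 10 to 15, proliferating and untreated. RNA came from native cells, as 3 numbered replicates per genotype that the authors pooled into 1 table (the numbered pair) and as 1 unnumbered sample per genotype (the unnumbered pair). Chromatin immunoprecipitation (ChIP) with sequencing gave 1 library per genotype for each of 6 targets, namely PML, histone H3, H3 trimethylated at lysine 9 (H3K9me3) or lysine 27 (H3K27me3), and the variant H3.3 carrying a Flag or an HA tag. Cells for the H3.3 libraries were transfected with the tagged histone. The labels do not say how many animals or embryos the cultures came from, nor which part of the gene was deleted.

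Fibroblasts build the extracellular matrix, and most of the 10 genes encode secreted proteins of that compartment. Fibrillar collagens are secreted as procollagens and assemble once their end peptides are cut off. Matrix proteins and secreted antagonists also set how far Wnt ligands and mineral deposition act in a tissue. Chromatin bears on whether such genes are transcribed. H3K27me3 is set by Polycomb complexes over silent developmental genes, H3K9me3 marks heterochromatin, and H3.3 replaces H3 outside replication, at active genes and in parts of heterochromatin. PML builds nuclear bodies that hold the H3.3 chaperones ATRX and DAXX.

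Several differences between the tables went together with genotype. In the numbered pair Xist, which coats the inactive X, was at 19.5 FPKM in WT and 0.0517 in KO, and the Y-linked gene Ddx3y at 0.0384 and 7.67, so genotype and sex of the cells cannot be told apart there. The FPKM of WT in that pair added up to 964437 and those of KO to 417175, against 524662 and 508827 in the unnumbered pair. Ribosomal protein genes held 39.7% of the summed FPKM of the genes used in WT and 18.1% in KO of the numbered pair, against 17.6% and 15.0% in the unnumbered pair, so the numbered WT table stood apart from the other 3 in its make-up. Macrophage markers summed to 190 FPKM in WT and 12.9 in KO of the unnumbered pair, where 10 of the 11 markers past the filter were at least 2-fold lower in KO, with Tyrobp and Aif1 at 0 in KO. In the numbered pair the same markers summed to 2.92 in WT and 3.96 in KO, with Tyrobp, C1qa, C1qb and C1qc at 0 in both tables. Fibroblast markers summed to 7456 and 4033 FPKM in WT and KO of the numbered pair and to 9651 and 7697 in the unnumbered pair. All 12 were above 0 in the 4 tables. Thy1 was at 0.141 FPKM in WT and 0.100 in KO of the numbered pair, and at 210 and 120 in the unnumbered pair. Of the 10 past the filter of the numbered pair, 2 were at least 2-fold lower in KO and 1 higher. The shares of all genes were 15.7% and 6.5%. In the unnumbered pair 4 of 12 were lower and 0 higher, against 3.83% and 1.74% of all genes. These 4 were Pdgfra (-2.85), Dpt (-1.98), Fap (-1.86) and Col3a1 (-1.16). Smooth muscle and pericyte markers summed to 5239 and 4328 in the numbered pair. In the unnumbered pair they summed to 2004 in WT and 4301 in KO, with a median difference of 0.85 over the list. There KO exceeded WT by at least 2-fold for 3 of 7, namely Acta2 (1.16), Tagln (1.01) and Cnn1 (1.56), against 1.74% of all genes. Des was at least 2-fold lower (-1.90), which is 1 of 7 against 3.83% of all genes. Skeletal muscle markers summed to 70.6 and 6.85 in the numbered pair and to 10.8 and 44.7 in the unnumbered pair. These sums were nearly all Acta1 (70.5 and 6.61, and 10.4 and 43.8), and all others on that list were under 1 FPKM in every table. Those of cartilage and bone summed to 135 and 59.5, and to 51.7 and 91.0, mostly from Col2a1 (112 and 50.6, and 40.4 and 81.0). Neural markers summed to 77.1 and 95.9, and to 34.4 and 60.7. The sums of endothelial, epithelial and adipocyte markers were under 20 FPKM in every table. The part of these differences in the values of the 10 genes was not tested. Pml itself was at 15.0 FPKM in WT and 10.2 in KO of the numbered pair, and at 7.62 and 4.22 in the unnumbered pair, which does not check the labels without knowing the deleted part. In bulk RNA, fewer cells of a type and less RNA per cell cannot be told apart.

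Mgp was by far the most abundant of the 10 RNAs and Wfdc18 the least abundant in each of the 4 tables. Across the 10 genes the median difference, KO minus WT of log2(FPKM + 1), was -3.70 for the numbered and -2.01 for the unnumbered pair. Over all genes with an FPKM of at least 1 in either genotype the medians were 0.06 (11055 genes) and 0.01 (11687 genes). Of all genes of the numbered pair, 15.7% were lower in KO by at least 2-fold and 6.5% higher. In the unnumbered pair 3.83% were lower and 1.74% higher, and 0.797% of the 10671 genes past the filter in both pairs were lower in both. Because the rule chose the 10 genes by these contrasts, nothing is read from their own counts. Tnnt2 was the 1 gene of the 10 whose KO level in the numbered pair exceeded its WT level in the unnumbered pair.

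**Figure D1:**
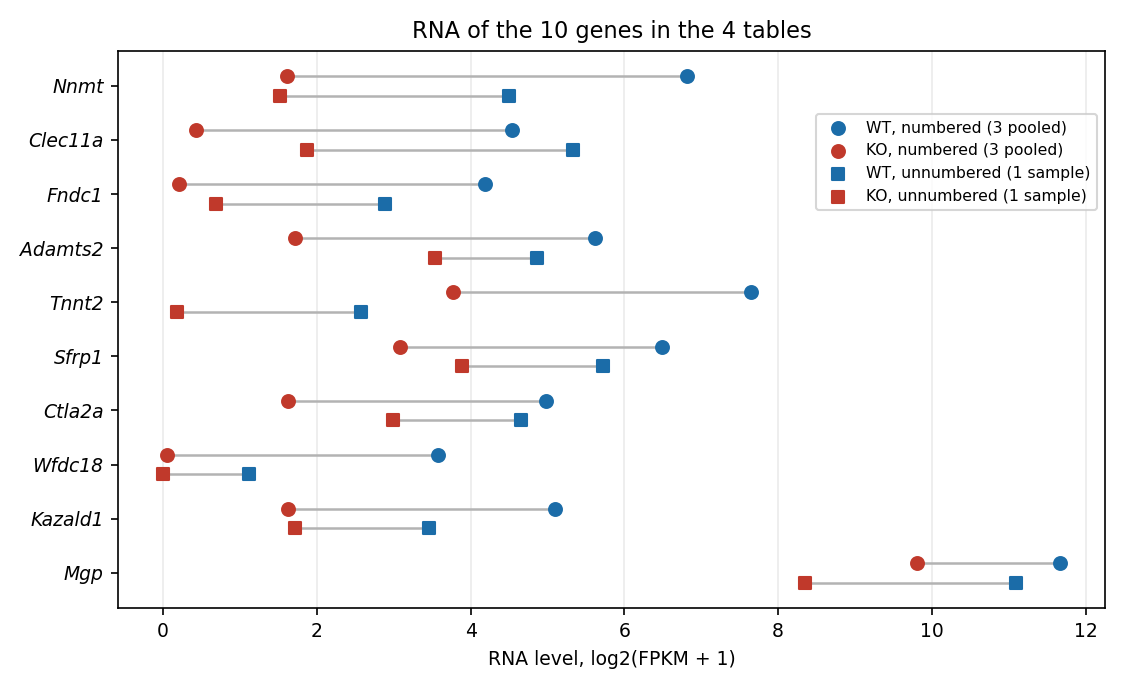
RNA level of each gene on the horizontal axis, as log2(FPKM + 1), with WT in blue and KO in red. Circles are the numbered tables (3 replicates pooled by the authors), squares the unnumbered samples, and grey lines join WT and KO of 1 pair. Every red symbol lies left of its blue partner, as the choice of genes required. Mgp is farthest right, from 326 to 3244 FPKM, and Tnnt2 is the gene whose pairs stand farthest apart.

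The 10 genes were not the only ones with such a pattern, and they did not all lead it. Ranked by the weaker of the 2 differences, Clec11a was at place 1 of the 85 genes, Nnmt at 2, Tnnt2 at 7, Fndc1 at 11, Mgp at 18, Sfrp1 at 19, Kazald1 at 22, Ctla2a at 23, Adamts2 at 40 and Wfdc18 at 65. The genes outside the 10 with the strongest weaker difference were Dcn, the small proteoglycan decorin (-2.48 in the numbered and -3.60 in the unnumbered pair), Fam129a (-2.77 and -2.44), Snhg9 (-2.40 and -3.83), the histone gene Hist1h4j (-2.39 and -2.89) and Acvrl1, a receptor of the TGF-beta family (-2.83 and -2.35). This likeness rests on 2 differences per gene, each between single tables. Just inside the 2-fold threshold lay Galnt18, Fam43a and Amdhd2, with weaker differences of -1.02, -1.01 and -1.01. Just outside lay Gstm1 (-0.998), Arap1 (-0.99) and Ptn (-0.99).

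**Figure D2:**
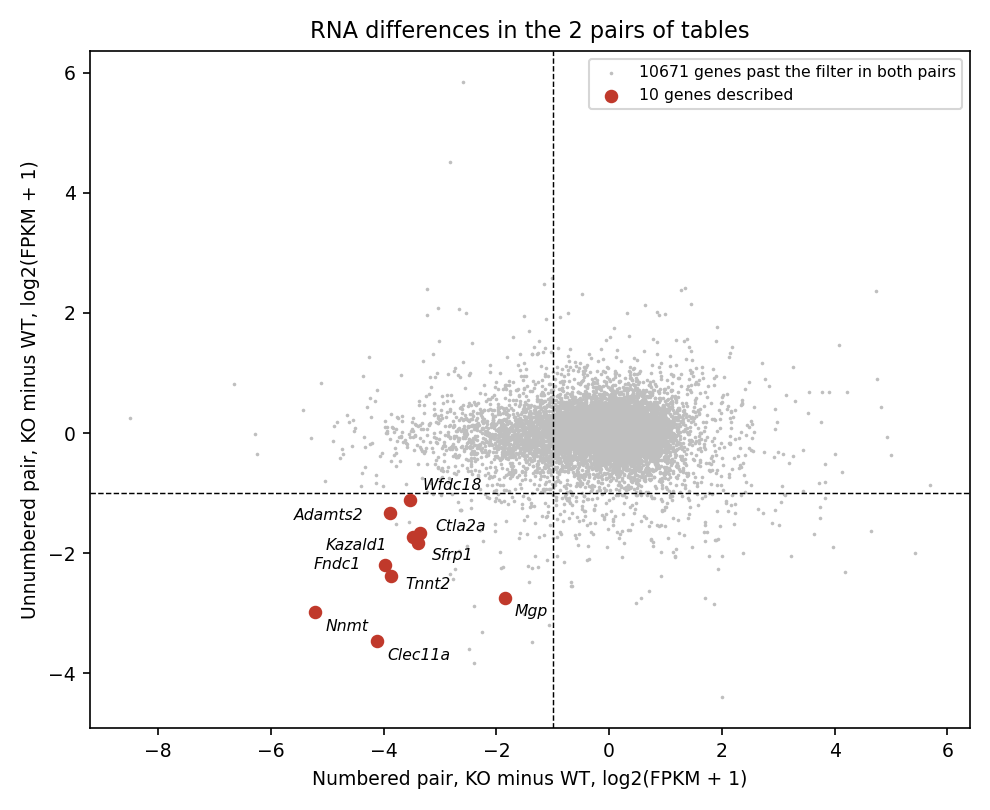
Difference between KO and WT for the numbered pair (horizontal) and the unnumbered one (vertical), each on the log2(FPKM + 1) scale, for 10671 genes past the filter in both pairs (grey) and the 10 genes described (red). Dashed lines mark 2-fold lower, and the 10 genes fill the lower left quadrant from Nnmt (-5.21 and -2.98) to Wfdc18 (-3.52 and -1.12).

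Among the matrix genes, Adamts2 encodes the protease that removes the amino-terminal propeptide of fibrillar procollagens. It spans 205 kb on the plus strand of chr11:50602085-50807573. Its RNA was at 48.1 FPKM in WT and 2.30 in KO of the numbered pair, and at 28.2 and 10.6 in the unnumbered pair. WT was high in both pairs, while the KO level of the unnumbered pair stood above that of the numbered one. The differences were -3.90 and -1.34. Fndc1, a secreted protein with fibronectin type III domains, lies on the minus strand at chr17:7738569-7827340 and was at 17.2 FPKM in WT and 0.153 in KO of the numbered pair. In the unnumbered pair it was at 6.39 and 0.618, so both KO tables were under 1 FPKM. Its differences were -3.98 and -2.19.

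Mgp, matrix Gla protein, is a vitamin K-dependent inhibitor of calcification and lies at chr6:136872435-136875823. Its RNA was at 3244 FPKM in WT and 896 in KO of the numbered pair, and at 2188 and 326 in the unnumbered pair. It ranked 55 and 62 by level in WT and KO of the numbered pair, and 18 and 221 in the unnumbered pair, so it remained among the abundant RNAs without PML. WT was 3.62 times KO in the numbered and 6.70 times KO in the unnumbered pair, with differences of -1.85 and -2.74. On this scale Mgp was the 1 gene of the 10 with the larger difference in the unnumbered pair, but for others this depended on the scale. By the ratio of FPKM, Tnnt2 was also farther apart in the unnumbered pair (35.9 times, against 15.8 in the numbered pair), and so it was with a pseudocount of 0.1 (-4.41 against -3.97) and with tables rescaled to a sum of 1000000 (-3.06 against -2.73). With a pseudocount of 5 Clec11a was (-2.53 against -2.35).

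Among the secreted regulators, Clec11a encodes a C-type lectin-like growth factor of stromal cells that acts on blood and bone precursors. It is a short gene of 3.19 kb on the minus strand of chr7:44303766-44306959. Its RNA was at 22.3 FPKM in WT and 0.346 in KO of the numbered pair, and at 39.4 and 2.67 in the unnumbered pair. Its WT level was the higher in the unnumbered pair, unlike that of the other 9 genes, and its differences were -4.11 and -3.46. Sfrp1, which binds Wnt ligands outside the cell, lies at chr8:23411383-23449632. It was at 88.7 FPKM in WT and 7.50 in KO of the numbered pair and at 51.9 and 13.9 in the unnumbered pair, with differences of -3.40 and -1.83. It kept a level above 5 FPKM in all 4 tables. Kazald1, a secreted protein with an insulin-like growth factor binding domain and a Kazal-type domain, lies on the plus strand of chr19:45074962-45079289. It was at 33.1 FPKM in WT and 2.08 in KO of the numbered pair, and at 10.0 and 2.30 in the unnumbered pair. The KO levels of Kazald1 were close in both pairs and its WT levels were not, and its differences were -3.47 and -1.74.

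Both protease inhibitor genes are short. Ctla2a resembles the propeptide of cathepsin L and inhibits such cysteine proteases, and it lies on the minus strand of chr13:60934155-60936625. Its RNA was at 30.5 FPKM in WT and 2.10 in KO of the numbered pair, and at 24.3 and 6.99 in the unnumbered pair, with differences of -3.35 and -1.66. Wfdc18, a small secreted protein with a whey acidic protein (WAP) domain, lies on the plus strand of chr11:83709004-83711360. It was at 10.9 FPKM in WT and 0.0360 in KO of the numbered pair, at 1.17 in WT of the unnumbered pair, and listed at 0 in its KO. Its differences were -3.52 and -1.12, and the unnumbered one starts from a WT level just above the filter.

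Nnmt and Tnnt2 encode proteins that act inside the cell. Nnmt is the enzyme that methylates nicotinamide with S-adenosylmethionine as the donor. The Nnmt gene spans 69.7 kb at chr9:48538002-48607655. Its RNA was at 112 FPKM in WT and 2.05 in KO of the numbered pair, and at 21.7 and 1.86 in the unnumbered pair. The KO levels were nearly the same in both pairs, while the WT tables differed by -2.32 on the log2(FPKM + 1) scale (unnumbered minus numbered). Its differences between genotypes were -5.21 and -2.98. Tnnt2, the cardiac form of troponin T, lies on the plus strand of chr1:135836315-135852268. It was at 199 FPKM in WT and 12.6 in KO of the numbered pair, and at 4.95 and 0.138 in the unnumbered pair. The WT tables stood farther apart than the genotypes did, at -5.07 (unnumbered minus numbered) against genotype differences of -3.87 and -2.39. The KO tables were at -3.58, which lies between the 2 genotype differences.

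Promoter sequences are shown for Clec11a, Fndc1 and Adamts2, because the starts of these 3 genes lay in H3K27me3 regions in both genotypes and in H3K9me3 regions in KO alone. Each sequence is the 250 bases before the most upstream start in the RefSeq promoter table of GRCm38.p6 (mm10), read 5′ to 3′ on the strand of the gene. The RefSeq gene bodies of Fndc1, Tnnt2 and Kazald1 reach farther upstream than that start, so their promoters overlap the body given above and another start may lie outside these windows. Capitals mark matches on either strand to TATAAA or CCAAT or GGGCGG or TGACTCA, which do not overlap each other here. A match on the other strand appears as its reverse complement, such as CCGCCC for the GC box. They lie at chr7:44306960-44307209 (minus strand), chr17:7827303-7827552 (minus strand) and chr11:50601835-50602084 (plus strand).
Clec11a: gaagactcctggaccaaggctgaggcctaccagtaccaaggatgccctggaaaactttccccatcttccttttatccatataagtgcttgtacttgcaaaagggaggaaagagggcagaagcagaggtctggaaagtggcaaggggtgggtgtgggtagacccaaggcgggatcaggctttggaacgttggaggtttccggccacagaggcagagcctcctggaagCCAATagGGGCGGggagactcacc
Fndc1: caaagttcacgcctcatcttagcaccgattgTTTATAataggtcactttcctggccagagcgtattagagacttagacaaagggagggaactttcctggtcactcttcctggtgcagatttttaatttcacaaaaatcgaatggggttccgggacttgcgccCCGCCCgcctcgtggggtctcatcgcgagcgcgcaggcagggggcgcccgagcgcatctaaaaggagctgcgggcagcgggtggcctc
Adamts2: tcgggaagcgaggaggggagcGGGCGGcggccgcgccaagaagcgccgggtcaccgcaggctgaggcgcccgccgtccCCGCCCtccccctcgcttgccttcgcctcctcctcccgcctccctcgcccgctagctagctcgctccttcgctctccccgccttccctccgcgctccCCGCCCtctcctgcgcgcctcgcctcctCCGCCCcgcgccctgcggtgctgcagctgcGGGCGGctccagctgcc
The promoter of Adamts2 was rich in G and C (78%, with 34 CG dinucleotides) and held GGGCGG 5 times. That of Fndc1 had 56% G and C and 18 CG dinucleotides, and that of Clec11a 55.6% and 4. The median over 32619 promoters was 52.4% with 6 CG dinucleotides.

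The same 4 motifs were counted in the 7 of the 10 genes whose promoters matched the RefSeq table, namely these 3 and Tnnt2, Ctla2a, Wfdc18 and Kazald1. GGGCGG, the core of the GC box, was in 4 of 7 promoters and in 33.0% of all. TATAAA was in 3 of 7 and in 12.4% of all, CCAAT in 1 of 7 and in 34.0%, and TGACTCA, an AP-1 site, in 1 of 7 and in 4.48%. In Wfdc18 and Ctla2a TATAAA lay on the strand of the gene and began 31 and 190 bases before the start. In Fndc1 it lay on the other strand, shown as TTTATA from 219 bases before the start. A match describes the letters and does not show that a factor binds.

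The Ctla2a promoter is shown beside that of its near copy Ctla2b. They lie at chr13:60936626-60936875 and chr13:60897448-60897697, both on the minus strand, and capitals have the same meaning as above.
Ctla2a: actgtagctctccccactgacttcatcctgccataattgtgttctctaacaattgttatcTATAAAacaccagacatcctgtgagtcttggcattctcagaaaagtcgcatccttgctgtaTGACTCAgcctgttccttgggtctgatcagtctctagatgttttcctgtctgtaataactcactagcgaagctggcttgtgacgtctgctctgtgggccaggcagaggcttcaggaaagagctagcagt
Ctla2b: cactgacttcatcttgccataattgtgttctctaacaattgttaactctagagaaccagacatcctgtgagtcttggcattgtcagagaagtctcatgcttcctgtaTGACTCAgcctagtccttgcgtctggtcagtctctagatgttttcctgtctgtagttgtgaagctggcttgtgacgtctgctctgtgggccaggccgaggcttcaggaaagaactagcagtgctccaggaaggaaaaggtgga
In a global alignment 211 of 274 columns were identical, which is 77.0% with gaps counted as unlike. TGACTCA was in both, beginning 129 bases before the start in Ctla2a and 143 in Ctla2b, and TATAAA in Ctla2a alone. Ctla2b RNA was at 4.23 FPKM in WT and 0.353 in KO of the numbered pair (-1.95), and at 2.04 and 0.797 in the unnumbered pair (-0.76). The authors' FPKM could divide reads between such copies. Likeness of the promoters does not show how far, because they lie before the start, and the RNA sequences were not compared. Values of both genes are uncertain to the extent that reads were shared.

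ChIP was not used to choose the genes, and it was compared as the share of each gene body covered by called regions. With 1 library per target and genotype no test was possible, and the labels give no replicate of any library. The caller is not named in the sources used here. H3K27me3 was the mark that covered most of the 10 gene bodies. At least 50% of the body was covered in 6 of 10 genes in WT and in 6 of 10 in KO, against 8.94% and 7.38% of the 10632 genes past the filter in both pairs with a RefSeq match. Nnmt, Clec11a, Fndc1 and Wfdc18 were covered to 100% in both genotypes, and Sfrp1 to 68.6% in WT and 71.2% in KO. Adamts2 went from 72.7% to 2.39%, and Ctla2a from 0 to 100%. Tnnt2, Kazald1 and Mgp were at 0 in both.

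Covered genes include many with little RNA, so the share was also taken among the 4838 genes with at least 10 FPKM in both WT tables, which hold 7 of the 10 genes. Of these 7, 4 had at least 50% of the body covered by H3K27me3 in WT (4.24% of the 4838 genes) and 4 in KO (3.95%). The level was set on WT alone, and the rule made the 7 genes lower in KO. The KO share is therefore not matched for RNA. Among the 84 matched genes of the 85 that were lower in both pairs, the shares were 35.7% in WT and 31.0% in KO. Nnmt, Clec11a, Fndc1, Sfrp1 and Wfdc18 thus carried H3K27me3 regions in WT too, where their RNA was higher. The equal counts do not name the same genes, since Adamts2 passed 50% in WT alone and Ctla2a in KO alone. Signal, the authors' value per region, was 25.8 in WT and 41.5 in KO over Nnmt, 46.1 and 39.5 over Clec11a, 17.6 and 18.4 over Fndc1, and 9.40 and 5.15 over Wfdc18. These regions ran far past the genes, from 80 kb around Wfdc18 in WT to 483 kb around Nnmt in WT. The median signal of H3K27me3 regions was 6.61 in WT and 6.39 in KO on chromosomes 1 to 9 and X. On chromosomes 10 to 19, where Fndc1 and Wfdc18 lie, it was 9.38 and 6.81, so the library was lower in KO there as well.

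The unlike H3K27me3 cover of Adamts2 and Ctla2a rested partly on faint regions. The start of Adamts2 lay in strong regions of both genotypes, with a signal of 33.0 in WT and 20.8 in KO. The rest of its WT cover came from regions with signals of 5.02, 0.475 and 0.0113, and the last of these alone held 39.2% of the body. The KO region over Ctla2a had a signal of 4.21 and spanned 283 kb, while the nearest WT region ended 4.15 kb away. Cover was lower in KO by at least 50 percentage points in 2.31% of the 10632 genes and higher in 1.11%, and each of these included 1 of the 10 genes. Kazald1 and Mgp lay close to H3K27me3 regions without touching them. A region of 281 kb with a signal of 80.4 in WT began 2.71 kb from Kazald1, and the nearest WT region to Mgp was 11.4 kb away.

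**Figure D3:**
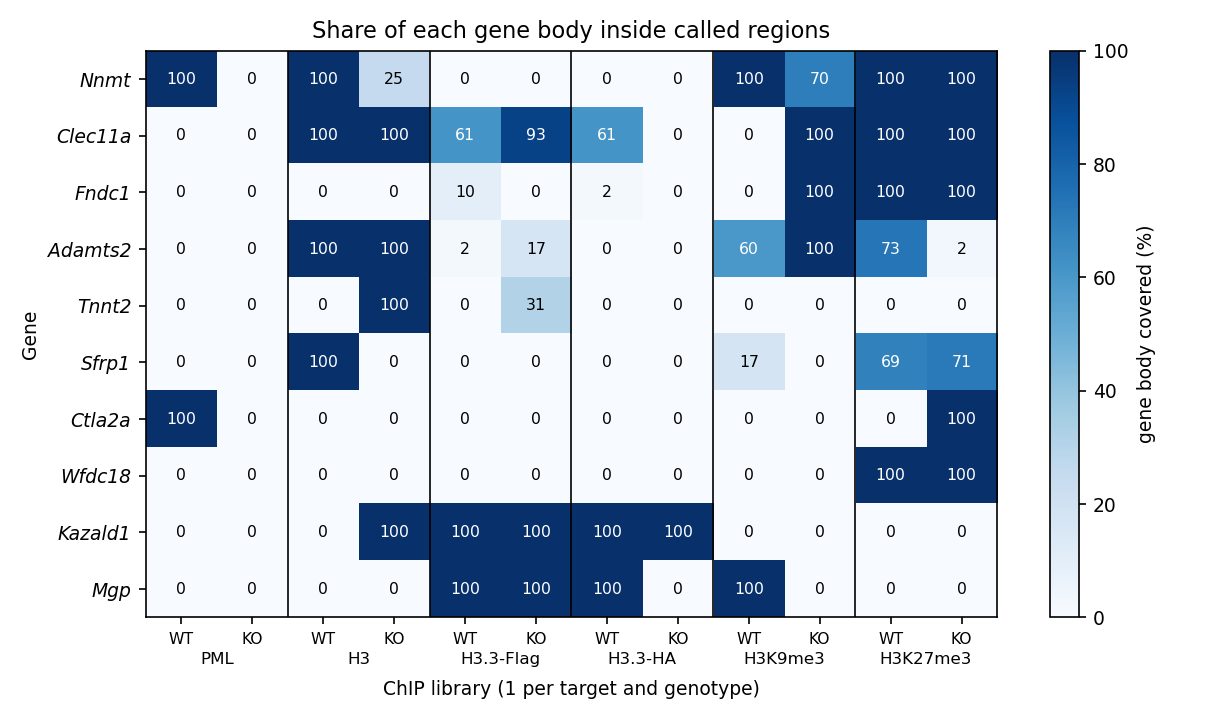
Share of each gene body (%) inside called regions of each ChIP library, with genes in lines and WT and KO of each target side by side. Darker blue means more cover, and each number is that share for 1 library. H3K27me3 covers 6 of 10 genes to at least 50% in WT and 6 of 10 in KO, with Adamts2 in WT alone and Ctla2a in KO alone, and H3K9me3 over Clec11a and Fndc1 goes from 0 to 100%.

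H3K9me3 lay over a different set of the 10 genes in each genotype. At least 50% of the body was covered in Nnmt, Adamts2 and Mgp in WT (3 of 10 genes, against 4.95% of the 10632 genes) and in Nnmt, Clec11a, Fndc1 and Adamts2 in KO (4 of 10, against 13.6%). Clec11a and Fndc1 went from 0 to 100%, Adamts2 from 60.1% to 100%, Nnmt from 100% to 69.9%, Sfrp1 from 17.3% to 0 and Mgp from 100% to 0. Cover was higher in KO by at least 50 percentage points in 9.21% of genes and in 2 of the 10, and lower in 1.19% and in 1 of the 10. The KO regions over Clec11a, Fndc1 and Adamts2 were 197, 216 and 792 kb long, with signals of 6.99, 4.36 and 11.9. The median signal of KO regions was 8.575 on chromosomes 1 to 9 and X and 8.31 on 10 to 19. The regions over Clec11a and Fndc1 were thus below the KO median, and that over Adamts2 above it. In WT the nearest H3K9me3 region lay 5.77 kb from Clec11a and 17.7 kb from Fndc1, with signals of 1.25 and 0.833.

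Against the median signal of their own library, the WT calls of H3K9me3 over Nnmt and Mgp were low and the one over Adamts2 was not. The KO regions over Nnmt were below the KO median too. The region over Nnmt had a signal of 0.159 in WT, against 5.91 and 8.12 for the regions over it in KO, and the region over Mgp had 2.73, where the median of WT regions on chromosomes 1 to 9 and X was 3.83. The WT region over Adamts2 had a signal of 10.3, close to the 11.9 of its KO region and above the median of 3.87 on chromosomes 10 to 19. With a minimum signal of 3, Adamts2 as 1 of the 10 genes was covered to at least 50% in WT (2.73% of the 10632 genes) and 4 of 10 in KO (13.6%). At this minimum Nnmt had 0 in WT and 69.9% in KO, which turned its direction. The median signal on chromosomes 1 to 9 and X was 3.83 in WT and 8.575 in KO, so 1 minimum does not cut both libraries alike. From no minimum to 3, the share of the 10632 genes fell from 4.95% to 2.73% in WT and stayed at 13.6% in KO. Whether the turn at Nnmt goes beyond this was not tested. Around the starts, within 2 kb on both sides, H3K9me3 touched 0 of 7 genes in WT and 3 of 7 in KO, against 5.58% and 11.9% of 8040 starts of genes past the filter. H3K27me3 touched 4 of 7 starts in WT and 5 of 7 in KO, against 27.8% and 20.1%. The 3 starts with H3K9me3 in KO were those of Clec11a, Fndc1 and Adamts2, and all 3 lay in H3K27me3 regions in both genotypes.

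**Figure D4:**
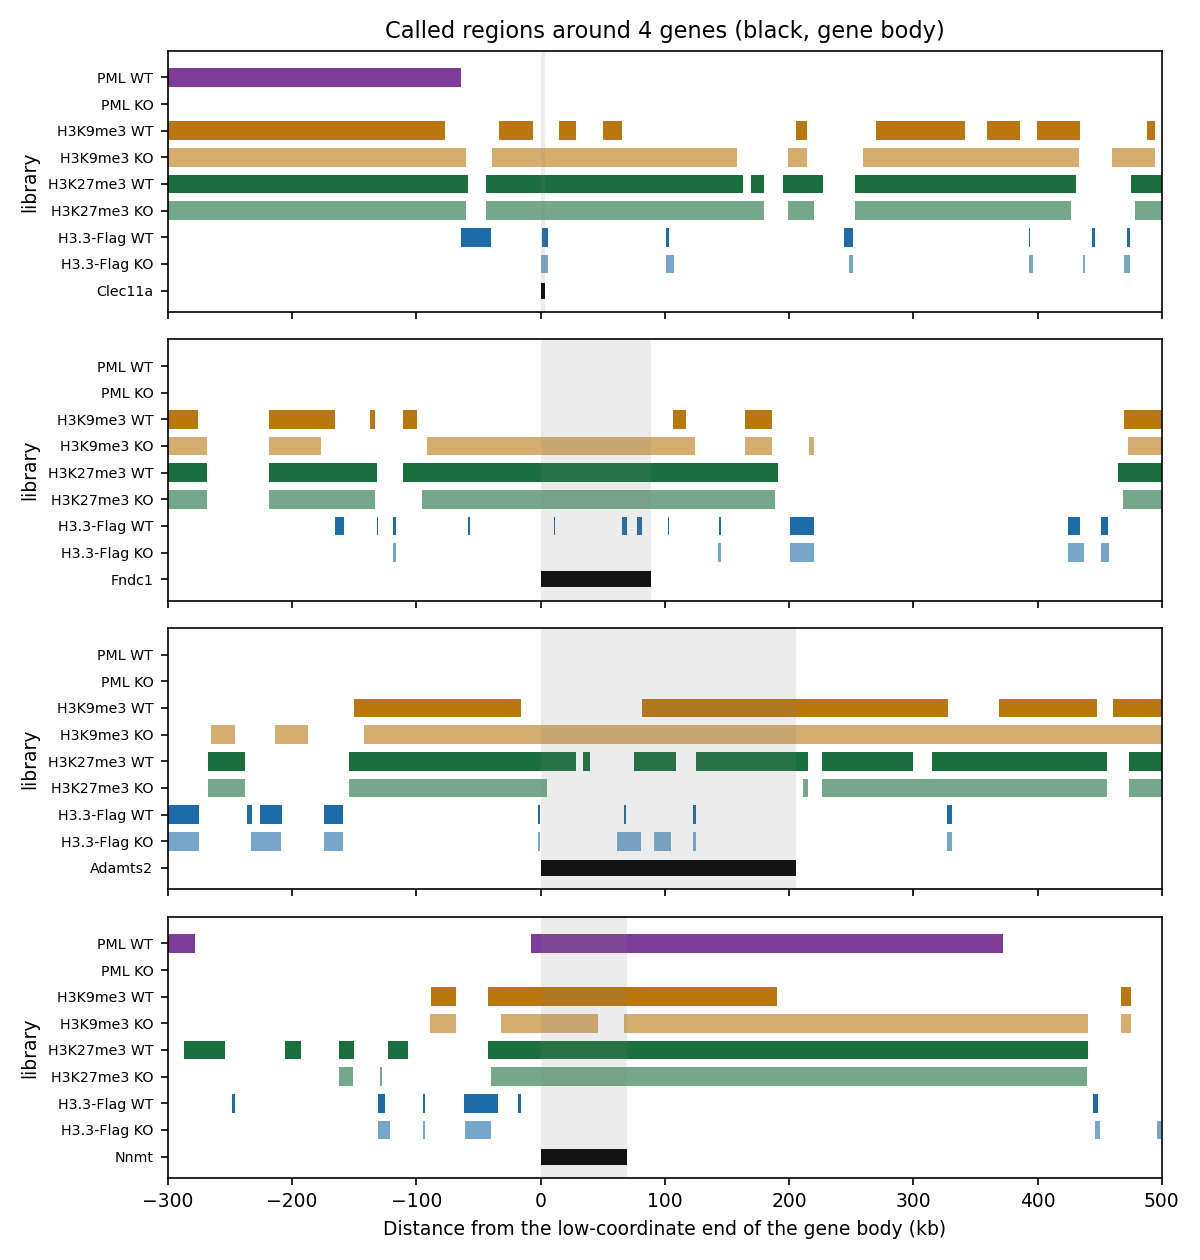
Called regions of 8 libraries around Clec11a, Fndc1, Adamts2 and Nnmt, as distance in kb from the low-coordinate end of each gene body (black bar, grey band). WT lanes are dark and KO lanes light. H3K27me3 lanes are alike in both genotypes over Clec11a and Fndc1, where H3K9me3 lanes bridge the gene in KO and leave it free in WT, and the PML lane of 380 kb over Nnmt is seen in WT alone.

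PML regions covered 2 of the 10 genes in WT, against 0.555% of the 10632 genes, and 0 of 10 in KO, against 0.0282%. Nnmt lay wholly inside a region of 380 kb at chr9:48530001-48910000, near its low-coordinate edge. Ctla2a lay wholly inside a region of 1040 kb at chr13:60750001-61790000. Among the 4838 genes with at least 10 FPKM in both WT tables, 0.248% were covered to at least 50% by PML in WT, and Nnmt and Ctla2a belonged to these. The next nearest of the 10 genes to a WT PML region were Clec11a at 63.8 kb and Sfrp1 at 70.4 kb, and the other 6 were 892 kb or more away. PML cover over Nnmt went together with full H3K27me3 cover in WT, and over Ctla2a with 0. Under the PML regions, H3.3-Flag and H3.3-HA covered 0 of both genes in both genotypes.

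Tagged H3.3 covered a smaller set of the genes. For H3.3-Flag at least 50% of the body was covered in 3 of 10 genes in WT and 3 of 10 in KO, against 37.2% and 39.3% of the 10632 genes. These were Clec11a (61.3% in WT and 92.6% in KO), Kazald1 and Mgp (100% in both). Signals were 47.8 in WT and 18 in KO over Clec11a, 43.8 and 13 over Kazald1, and 61.8 and 21.1 over Mgp. The median signal of all H3.3-Flag regions on chromosomes 1 to 9 and X was 35.5 in WT and 15.9 in KO, so the library as a whole was lower in KO as well. Inside Fndc1, 3 short regions covered 10.1% of the body in WT and 0 in KO. Adamts2 went from 1.95% to 17.0%, and Tnnt2 from 0 to 31.3%, where the KO region had a signal of 14.6.

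H3.3-HA covered at least 50% of 3 of 10 genes in WT and of 1 of 10 in KO, against 15% and 33.9% of the 10632 genes. Clec11a went from 61.3% to 0 and Mgp from 100% to 0, and cover was lower in KO by at least 50 percentage points in 5.09% of genes. Kazald1 was at 100% in both, but its KO region was 175 kb long with a signal of 1.59, against 7 kb and 20 in WT. The median signal of H3.3-HA regions on chromosomes 10 to 19 was 16.2 in WT and 1.53 in KO, so the KO value over Kazald1 was near that of its library. KO regions were also fewer and longer, at 1759 with a median of 62 kb, against 6730 and 5 kb in WT. At a minimum signal of 3, H3.3-HA covered 0 of the 10 genes to at least 50% in KO. That minimum took the share of all genes in KO from 33.9% to 5.97%, so it removed much of the library. Over Clec11a and Mgp both tags gave the same cover in WT (61.3% and 100%), while in KO H3.3-Flag alone was called there.

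Regions of total H3 covered at least 50% of the body in 4 of 10 genes in WT and in 4 of 10 in KO, against 21.7% and 39.3%. Clec11a and Adamts2 were covered to 100% in both genotypes, so their histone mark calls lay on stretches also called with the antibody against total H3. Nnmt went from 100% to 25.3% and Sfrp1 from 100% to 0, and 2.12% of genes were lower by at least 50 percentage points. Tnnt2 and Kazald1 went from 0 to 100%, and 19.7% of genes were higher by at least 50 percentage points. The part of H3 calls in the cover by the marks was not tested.

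The genes next to the 10 that passed the filter were too few to compare with all genes in either pair. Of the 20 nearest protein-coding genes, 1 on each side, 6 passed the filter of the numbered pair and 7 that of the unnumbered pair, with median differences of -0.18 and -0.14. In each pair 1 neighbour was at least 2-fold lower in KO (1 of 6 and 1 of 7, against 15.7% and 3.83% of all genes) and 0 were higher. Gm5617, which lies 42.0 kb from Nnmt, was at 71.8 FPKM in WT and 4.52 in KO of the numbered pair (-3.72), but at 10.1 and 9.67 in the unnumbered pair (-0.06). Wfdc17, which lies 2.74 kb from Wfdc18, was at 1.31 FPKM in WT and listed at 0 in KO of the unnumbered pair (-1.21), and under 1 FPKM in the numbered pair. Shank1, which lies 1.96 kb from Clec11a, and Zbtb16, which lies 44.1 kb from Nnmt, were under 1 FPKM in all 4 tables. Zfp354c, 3.51 kb from Adamts2, had differences of 0.44 and -0.49, Golga7 near Sfrp1 0.38 and -0.06, and Pkp1 near Tnnt2 0.18 in the numbered pair.

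The pathways around the 10 genes gave mixed counts. The counts include the described genes, which were chosen for being lower, so they are also given without them. They are to be read against all genes, of which 15.7% were lower and 6.5% higher in the numbered pair, and 3.83% lower and 1.74% higher in the unnumbered pair. Of 10 ADAMTS proteases past the filter of the numbered pair, 5 had at least 2-fold less RNA in KO and 0 more, with Adamts5 (-2.67) and Adamts12 (-2.46) among them. In the unnumbered pair 3 of 12 were lower and 0 higher, and Adamts5 and Adamts12 had differences of -0.09 and 0.47. Without Adamts2, 4 of 9 ADAMTS genes were lower in the numbered pair and 2 of 11 in the unnumbered pair. Of the procollagen processing genes 7 of 18 were lower in the numbered pair and 1 of 19 in the unnumbered pair. Pcolce2, an enhancer of procollagen cleavage, was among those lower in the numbered pair (-1.12) but was higher in the unnumbered pair (1.89). Its relative Pcolce had differences of -1.23 and -0.65. The collagen chaperone gene Serpinh1 had differences of -1.76 and -0.35. Adamts2 was the 1 procollagen processing gene that was lower in both pairs, and without it 6 of 17 were lower in the numbered pair and 0 of 18 in the unnumbered pair.

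Of 27 matrix glycoprotein genes 11 were at least 2-fold lower and 3 higher in the numbered pair, and 7 lower and 1 higher in the unnumbered pair. Without Fndc1 and Mgp, 9 of 25 were lower in the numbered pair and 5 of 25 in the unnumbered pair. Mfap4, a protein of elastic microfibrils, was lower in both pairs, at 3.10 FPKM in WT and 0.715 in KO of the numbered pair and at 170 and 35.6 in the unnumbered pair (-1.26 and -2.22). Fndc1 and Mgp were the others that were lower in both, and the matrix protein gene Postn had differences of -0.86 and -1.69. Around Mgp, Clec11a and Kazald1, 7 of 12 genes of mineralisation and vitamin K action were lower and 2 higher in the numbered pair, and 3 of 12 were lower in the unnumbered pair, all of them among the 10 described. Without these 3, 4 of 9 were lower in the numbered pair and 0 of 9 in the unnumbered pair. Gas6, another vitamin K-dependent protein, had differences of -2.98 and -0.62, and the integrin gene Itga11, whose product binds Clec11a, had -3.45 and -0.06. Bmp4 (-2.45 and 0.23) and the pyrophosphate transporter gene Ank (2.35 and 0.50) were not lower in both.

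Of the Wnt antagonists, 2 of 6 were at least 2-fold lower and 3 higher in the numbered pair, and 3 of 7 lower and 0 higher in the unnumbered pair. Sfrp1 was lower in both pairs, and without it 1 of 5 was lower in the numbered pair and 2 of 6 in the unnumbered pair. Frzb, its relative, had differences of -3.61 and -0.84, Sfrp2 1.77 and -2.04, and Dkk3 4.83 and 0.43. Of the Wnt target genes 1 of 6 was lower and 2 higher in the numbered pair, and 1 of 6 was lower and 0 higher in the unnumbered pair. The gene lower in the numbered pair was Nkd2 (-2.61 and -0.22), and those higher there were Lef1 (1.60) and Tcf7 (1.10). The gene lower in the unnumbered pair was Lgr5 (-1.99).

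Around Nnmt, 2 of 15 genes of NAD salvage and methyl metabolism were at least 2-fold lower and 2 higher in the numbered pair, and 2 of 15 were lower and 0 higher in the unnumbered pair. Without Nnmt, 1 of 14 was lower in each pair. Naprt1, which starts NAD synthesis from nicotinic acid, was lower with Nnmt in both pairs, at 15.5 FPKM in WT and 0.406 in KO of the numbered pair and at 7.60 and 2.06 in the unnumbered pair. Nampt, which starts the route from nicotinamide, had differences of 1.51 and -0.44, and Nmnat2, which makes NAD in a later step, had 2.48 and -0.25. The methyl donor genes Mat2a (0.21 and -0.07) and Ahcy (0.62 and 0.04) differed by less than 2-fold in both pairs.

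Of the striated muscle genes around Tnnt2, 6 of 8 were at least 2-fold lower and 1 higher in the numbered pair, and 2 of 6 lower and 1 higher in the unnumbered pair. Tnnt2 was lower in both pairs, and without it 5 of 7 were lower in the numbered pair and 1 of 5 in the unnumbered pair. Tnni3 (-2.13) and Myl4 (-2.75 in the numbered and -0.06 in the unnumbered pair) are other genes of the heart sarcomere, and Actc1, Myod1 and Myog did not pass the filter. Of the cysteine cathepsins and their inhibitors, 7 of 14 were lower in the numbered pair and 3 of 15 in the unnumbered pair, with 0 higher in both. Without Ctla2a, 6 of 13 were lower in the numbered pair and 2 of 14 in the unnumbered pair. Ctsk, cathepsin K, was lower in both pairs with Ctla2a, at 6.97 FPKM in WT and 0.241 in KO of the numbered pair and at 36.6 and 15.9 in the unnumbered pair (-2.68 and -1.15). Ctss, a cathepsin of macrophages, was lower in the unnumbered pair (-2.80), where macrophage markers were lower too. Of the WAP domain genes, Wfdc18 was the 1 past the filter in the numbered pair.

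How far the numbered pair showed lower or higher genes depended on scaling. With FPKM as deposited, 1737 genes were at least 2-fold lower and 719 higher in KO, so 70.7% of these were lower. With each table rescaled to a sum of 1000000, 610 were lower and 6671 higher (8.38% lower), and the median difference of all genes moved to 1.13. Without ribosomal protein genes in that sum, 968 were lower and 4447 higher (17.9% lower), and with a pseudocount of 5 the share lower was 86.0%. Relative to the median of all genes, the median of the 10 genes was -3.76 as deposited and -3.98 after rescaling in the numbered pair. After rescaling, 9 of the 10 remained at least 2-fold lower there, and Mgp had a difference of -0.64.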

How the data were processed

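The series held 20 samples of mouse embryonic fibroblasts, 8 for RNA and 12 for ChIP. RNA values are FPKM deposited by the authors, in 4 tables that were read by splitting each line at its last comma. ChIP files are region lists with a signal and a score per region deposited by the authors for H3.3, H3K9me3 and H3K27me3, and a score alone for H3 and PML. Per the submitters' processing notes the build was mm10 and the tools were Cuffdiff 2.2.1, Cufflinks 2.2.1, TopHat2 2.0.8b and Bowtie 1.0.0. Neither the region caller nor read totals were given in the sources used here, so depth is unknown.

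Repeated names were dropped, as were the 267 or 271 lines of a table that name more than 1 gene. The difference was KO minus WT of log2(FPKM + 1) for genes at an FPKM of at least 1 in either genotype. It understates the change of low genes. Of 22593 genes, 99.5% matched RefSeq (GRCm38.p6), whose gene bodies were intersected with the union of regions. Signal times length in kb was whole for regions of chromosomes 1 to 9 and of X but seldom for 10 to 19 (Adamts2, Fndc1, Ctla2a, Wfdc18, Kazald1), and a minimum of signal may differ in meaning between these chromosomes. Python 3.11.15, numpy 2.4.6, pandas 2.3.3 and matplotlib 3.10.9 were used, and the scripts were tested on simulated data. No test of genotype was possible with 1 value per group. The 10 genes, the gene lists and the alternatives were chosen with earlier results of these data known. Other genes were named where they neighbour a member, belong to a list and differ most or in both pairs, or stand next to the members or the threshold in rank. Mat2a, Ahcy, Sfrp2, Pcolce2, Bmp4, Ank and Itga11 fall outside this rule and were chosen after their values were seen. The share among genes with at least 10 FPKM in WT was added after the values were seen.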

Additional observations from a re-analysis of the deposited data

Results flagged for a closer look

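In the gene lists around the 10 genes, 6 other genes were at least 2-fold different in opposite directions in the 2 pairs of RNA tables. The difference between the pairs was not tested, since each pair has 1 table per genotype. Values are KO minus WT on the log2(FPKM + 1) scale, and the last value of each gene is the unnumbered minus the numbered difference. Among muscle genes, Acta1, a skeletal actin, had -3.23 and 1.97 in the numbered and unnumbered pair (5.20), and Des, the intermediate filament desmin, 3.97 and -1.90 (-5.87). Among Wnt antagonists, Sfrp2 had 1.77 and -2.04 (-3.82) and Dkk2 2.07 and -1.14 (-3.21). Among matrix genes, the microfibril gene Mfap2 had 2.95 and -1.27 (-4.22) and Pcolce2, the procollagen cleavage enhancer, -1.12 and 1.89 (3.02).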

How the results depend on the processing

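All 10 genes kept their direction in both pairs under every pseudocount, filter and scaling that was tried and in which they passed the filter. Those that no longer reached 2-fold were Mgp in the numbered pair with tables rescaled to 1000000 (-0.64), and Tnnt2 (-0.95) and Wfdc18 (-0.30) in the unnumbered pair with a pseudocount of 5. At a minimum of 5 FPKM, Tnnt2 and Wfdc18 dropped out of the unnumbered pair, because their own levels there (4.95 and 1.17 in WT, less in KO) were under it. The 85 genes lower in both pairs became 56 at that minimum, 142 with a pseudocount of 0.1, 31 with a pseudocount of 5 and 53 after rescaling. The mean body cover of the 10 genes, KO minus WT in percentage points, was -20 for PML, 9.24 for H3K9me3, 3.23 for H3K27me3, 6.76 for H3.3-Flag, 2.53 for H3 and -16.4 for H3.3-HA. With 10 kb added on both sides H3.3-HA turned to 0.433, H3 to -0.734 and H3.3-Flag to -0.627, while H3K9me3 was at 14.5 and H3K27me3 at 0.566. Within 2 kb of the start, for 7 genes, H3 was at 28.6, H3.3-Flag at 0.150, H3K9me3 at 42.9 and H3K27me3 at 14.3. With a minimum signal of 1 H3K9me3 was at 19.2 and H3K27me3 at 8.80, and with a minimum of 3 they were at 31.0 and 7.07 and H3.3-HA at -26.4. Median signals of H3K9me3 and H3.3-HA regions differed between WT and KO, so a shared minimum does not cut both libraries alike. Beyond the choice of window and signal minimum, the cause was not tested. No paired analysis was possible because the numbered replicates were pooled into 1 column per genotype before deposit, and no replicate could be left out for the same reason. Without read totals, what low FPKM values can resolve is unknown.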
